A study of Homo sapiens with 12 samples.

Results

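The 6 mRNAs that human mitochondrial DNA encodes for respiratory complexes III to V were examined: MT-CYB of complex III, MT-CO1, MT-CO2 and MT-CO3 of complex IV, and MT-ATP6 and MT-ATP8 of complex V. They were taken by gene name from the 22379 genes with values, and all 6 passed the filter on low values. The cells were U2OS, derived from a human osteosarcoma, and mRNA was measured in 12 libraries, 2 for each of 6 groups. The groups are pools that received a Cas9 and guide plasmid by transient transfection, were selected with puromycin and were not cloned: NONT (a nontargeting guide), NUP93-KO and EXOSC5-KO, each given DMSO vehicle (called untreated here, after the sample titles) or 1 μM triptolide for 8 h. Triptolide inhibits XPB, the TFIIH helicase, and so blocks transcription by RNA Pol II. NUP93 is a nuclear pore protein and EXOSC5 is a subunit of the RNA exosome, and the knockouts ask whether mRNA loss under the drug can be uncoupled from loss of RNA Pol II.

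Mitochondrial DNA is transcribed inside the organelle by POLRMT, a polymerase separate from RNA Pol II, as long precursor RNAs that are cut at tRNAs into mRNAs. The mRNAs are polyadenylated by MTPAP and held stable in the matrix by the LRPPRC and SLIRP complex, and mitochondrial ribosomes translate them. Cytochrome b, made from MT-CYB, carries electrons within complex III. MT-CO1, MT-CO2 and MT-CO3 encode the core of cytochrome c oxidase, and MT-ATP6 and MT-ATP8 encode membrane subunits of the ATP synthase. Every other protein of these complexes comes from nuclear genes that RNA Pol II transcribes, so each complex joins products of both genomes.

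All 6 genes lie on the plus strand of the mitochondrial chromosome (GRCh38), each with 1 exon. MT-CO1 (ENSG00000198804) covers chrM:5904-7445 and MT-CO2 (ENSG00000198712) covers chrM:7586-8269. MT-ATP8 (ENSG00000228253) covers chrM:8366-8572, MT-ATP6 (ENSG00000198899) covers chrM:8527-9207 and MT-CO3 (ENSG00000198938) covers chrM:9207-9990, with no tRNA between these 3. MT-CYB (ENSG00000198727) stands apart at chrM:14747-15887. MT-ATP8 and MT-ATP6 share 46 bases, so a read in this stretch cannot be given to either gene by its sequence. The stretch is shown because the MT-ATP8 gene is only 207 bases long, with the shared bases (chrM:8527-8572) in capitals:
MT-ATP8/MT-ATP6 overlap, chrM:8512-8587, plus strand: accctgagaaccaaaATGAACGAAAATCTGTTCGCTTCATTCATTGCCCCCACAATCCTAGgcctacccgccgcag
MT-ATP6 and MT-CO3 share 1 base, chrM:9207, in capitals in the next line. It is the last base of the MT-ATP6 stop codon and the first base of the MT-CO3 start codon:
MT-ATP6/MT-CO3 junction, chrM:9187-9227, plus strand: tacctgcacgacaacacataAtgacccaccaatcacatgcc
The libraries were made from poly(A) RNA, and part of these mRNAs needs the tail to form a stop codon. For that reason the last 30 bases of 3 genes are shown, with the bases of the final codon in capitals. MT-CO3 and MT-CYB end in T alone, which poly(A) addition completes to a stop codon, while MT-ATP6 ends in a full stop codon:
MT-CO3, chrM:9961-9990, plus strand: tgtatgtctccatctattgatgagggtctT
MT-CYB, chrM:15858-15887, plus strand: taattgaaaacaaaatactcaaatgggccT
MT-ATP6, chrM:9178-9207, plus strand: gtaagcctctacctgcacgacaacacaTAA

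Nuclear DNA holds copies of mitochondrial genes. Of the 31-base words of MT-CO1, 66.7% also occur in other transcripts of the GENCODE release 44 annotation, mostly in the pseudogene MTCO1P12. The share was 63.7% for MT-ATP6, 50.5% for MT-CO2, 45.0% for MT-CO3, 44.6% for MT-ATP8 and 4.95% for MT-CYB. These pseudogenes have no value in the table, and how reads were divided between the copies is not known, so the values of all but MT-CYB are uncertain to that extent.

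Per library, approximately 8585457 to 11936583 read pairs (called reads here) were assigned to the genes with values and the spike-in RNAs. The 6 mRNAs together held approximately 36987 to 89592 reads per library. Values are estimated counts scaled to ERCC spike-ins, synthetic RNAs added in proportion to counted cells, so a value stands for mRNA per cell and is called the spike-in scale. The spike-ins follow the count of all cells, so within a pool fewer cells of one kind and less RNA per cell cannot be told apart. The summed value of all genes was 11320521 to 16445813 in untreated libraries and 4897927 to 8791818 under triptolide. NONT untreated replicates 1 and 2 stood apart from each other, at the 2 ends of the untreated range. EXOSC5 was lower in the 4 EXOSC5-KO libraries (75.2 to 216) than in the NONT libraries of the same treatment (208 to 481). NUP93 was 1395 and 1432 in untreated NUP93-KO against 1753 and 2489 in untreated NONT, and under triptolide 801 and 1019 against 1007 and 899, which overlap. The osteoblast and mesenchymal genes COL1A1, SPARC and VIM were at 13192.5 or more in every untreated library, RUNX2 was at 218 to 403.5 and COL1A2 at 10.2 to 42.0. Of markers of other cell types, EPCAM (epithelium) was at 16.8 to 47.6 in untreated libraries, PECAM1 (endothelium) at 0 to 9.99, ALB (liver) at 0 to 6.65 and PTPRC (blood) at 0 to 4.57, and HBB and MYH7 were at 0.

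Together the 6 mRNAs made up 64.8% to 67.0% of the value of the 13 mitochondrially encoded mRNAs, the other 7 being those of complex I. Per kilobase of gene, and over the 6 untreated libraries, MT-CO3 had the highest median level at 14409 (11058 to 17414). MT-CO2 followed at 13560 (9056 to 16763), then MT-CO1 at 13481 (9090.3 to 16642), MT-ATP6 at 10061 (7079 to 12237), MT-ATP8 at 6646 (4902 to 7986) and MT-CYB at 5447 (3627 to 6466). Each mRNA's range overlapped that of its neighbour in this order. MT-ND6, the complex I mRNA encoded on the other strand, was at 75.4 to 108 per kilobase in the same libraries.

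**Figure D1:**
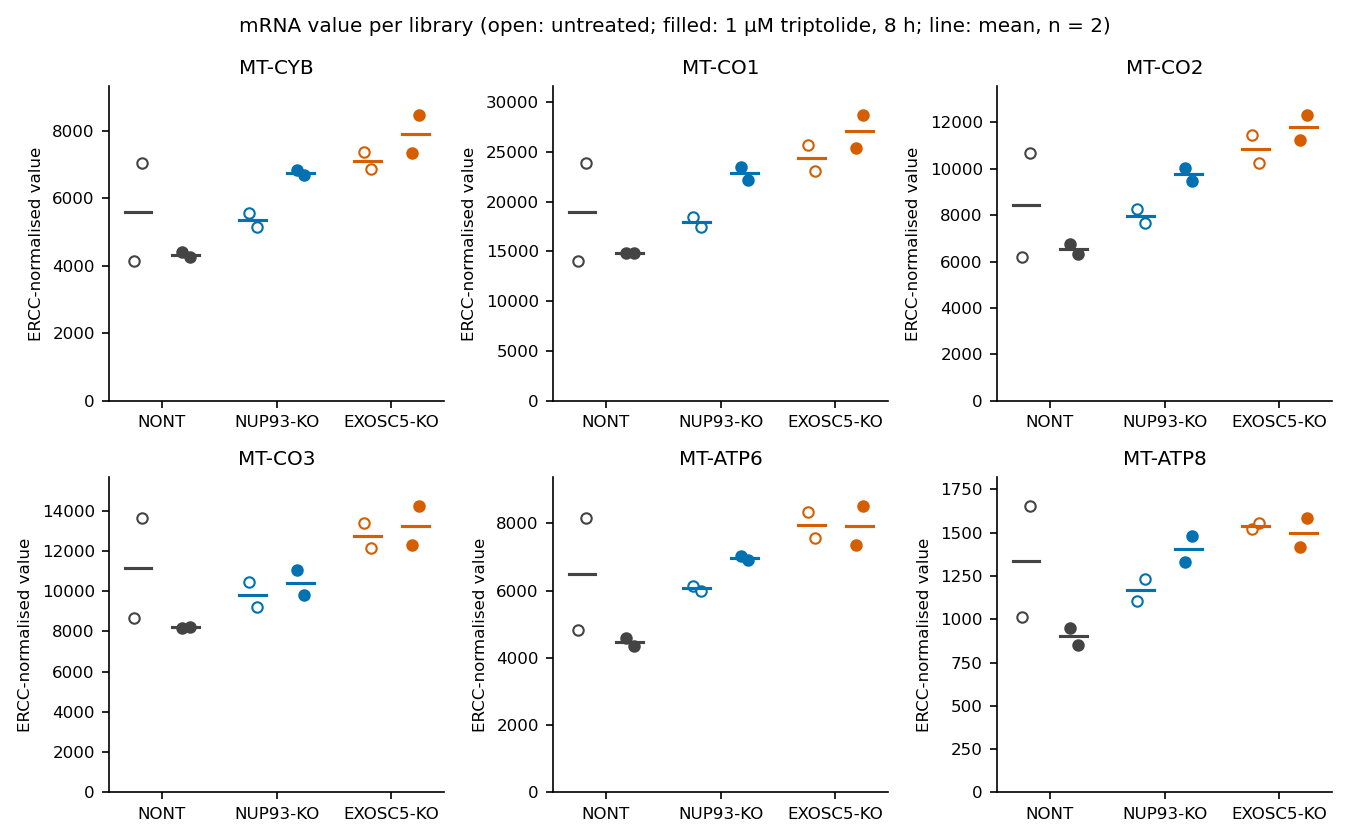
Value of each of the 6 mRNAs in each library on the spike-in scale (vertical axis, from 0), by genotype (horizontal axis), with open points untreated, filled points triptolide and lines the mean of 2 libraries. The 2 untreated NONT libraries lie far apart in every panel (14017 and 23859.5 for MT-CO1), and the treated NONT libraries lie below every knockout library for all 6 mRNAs (14850.4 or less against 17497 or more for MT-CO1).

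On the spike-in scale, triptolide left these mRNAs far nearer to their untreated level than most genes, in all 3 genotypes. In NONT the median log2 change of the 6 was −0.36 on the spike-in scale, against −1.62 over the 13811 genes tested. For EXOSC5-KO cells these medians were 0.09 and −1.08, and for NUP93-KO cells 0.28 and −0.92. All 6 lay above the median of all genes in each genotype, and the distance between the medians was 1.26 (NONT), 1.20 (NUP93-KO) and 1.16 (EXOSC5-KO).

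MT-CYB, the complex III member, was 4138 and 7047 in untreated NONT and 4399 and 4260.5 under triptolide. In NUP93-KO it went from 5574 and 5152 to 6828 and 6684, and in EXOSC5-KO from 7378 and 6855 to 7331 and 8479. Treated and untreated libraries overlapped in NONT and EXOSC5-KO and did not in NUP93-KO, where both treated libraries were higher. The log2 change of MT-CYB was −0.32 ± 0.22 (SE) in NONT (limma adjusted p = 0.168). It was 0.33 ± 0.22 in NUP93-KO (adjusted p = 0.204) and 0.15 ± 0.22 in EXOSC5-KO (adjusted p = 0.542).

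MT-CO1, which encodes the catalytic subunit of complex IV, had the highest value of the 6 in every library. It was 14017 and 23859.5 in untreated NONT and 14850.4 and 14813 after the drug. The values were 18464 and 17497, then 23496 and 22189, in NUP93-KO, and 25662 and 23111, then 25386 and 28728, in EXOSC5-KO. Only in NUP93-KO did both treated libraries lie beyond both untreated ones, although the log2 change there, 0.35 ± 0.23 (SE), did not pass the test (limma adjusted p = 0.217).

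MT-CO2, which encodes the subunit that takes electrons from cytochrome c, went the same way as MT-CO1. It was 6194 and 10661, then 6772 and 6333, in NONT, 8283 and 7675, then 10036 and 9482, in NUP93-KO, and 11466 and 10267, then 11239.9 and 12334, in EXOSC5-KO. Its 3 log2 changes were −0.31, 0.29 and 0.12, and none passed the test (limma adjusted p = 0.186, 0.281 and 0.637).

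MT-CO3, the third core subunit of complex IV, differed from these in where its libraries overlapped. It was 8669 and 13653 in untreated NONT and 8193 and 8216 under triptolide, with no overlap. In NUP93-KO it was 10452 and 9203, then 11036 and 9816, and in EXOSC5-KO 13374 and 12141, then 12291 and 14232, with overlap in both. Its log2 change was −0.41 ± 0.21 (SE) in NONT (limma adjusted p = 0.0811). The knockouts gave 0.09 for NUP93 (adjusted p = 0.758) and 0.05 for EXOSC5 (adjusted p = 0.827).

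MT-ATP6, which encodes the proton channel subunit of the ATP synthase, was 4821 and 8150.4 in untreated NONT and 4578 and 4343 under triptolide. It was 6151 and 5976, then 7044 and 6919.8, in NUP93-KO, and 8333 and 7552, then 7344 and 8512, in EXOSC5-KO. Both treated libraries were thus lower in NONT and higher in NUP93-KO, while those of EXOSC5-KO overlapped.

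MT-ATP8, whose product is a small membrane subunit of the same enzyme, showed the same arrangement. It was 1015 and 1653, then 950 and 854, in NONT, 1105 and 1229.5, then 1333 and 1481, in NUP93-KO, and 1522 and 1555, then 1414 and 1585, in EXOSC5-KO. All 6 members had a negative log2 change in NONT on the spike-in scale. MT-ATP6 and MT-ATP8 were the 2 called lower, and both rose when libraries were set to the same total of all genes.

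In numbers, on the spike-in scale in NONT, 2 of 6 were called lower and 0 higher, against 90% of all genes called lower (limma, adjusted p under 0.05). MT-ATP6 fell by 0.49 ± 0.22 (log2, SE, adjusted p = 0.0406) and MT-ATP8 fell by 0.52 ± 0.21 (adjusted p = 0.0287). In NUP93-KO 0 of 6 were called in either direction, against 55.2% of all genes, and in EXOSC5-KO 0 of 6 against 64.4%; at an unadjusted p under 0.05 the counts in both knockouts were also 0. The NONT count rests on the untreated NONT libraries: without replicate 1 all 6 were called lower, and without replicate 2 none was. Without treated NONT replicate 2 the count was also 0, and leaving out any other library except NONT untreated replicate 1 gave 1. In NUP93-KO, 3 of 6 were called higher when either untreated NONT library was left out, a step that changes the estimate of the spread only.

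The direction depends on what the values are set against. When each library was set to the same total of all genes, all 6 rose after triptolide in each of the 3 genotypes, with no overlap between treated and untreated libraries. On this scale the log2 changes were 0.81 to 1.04 in NONT, where 15.2% of all genes were called higher. They were 0.65 to 0.91 in NUP93-KO, against 13.9% of all genes, and 0.75 to 0.94 for EXOSC5-KO, against 14.7%. MT-CO1 for instance was 12869 and 15078 in untreated NONT and 25996 and 31433 under triptolide at the same total. The median change of all genes was −0.32, −0.36 and −0.29 on that scale. As a share of all gene values, the 6 mRNAs were 0.343% to 0.470% of untreated libraries and 0.643% to 0.920% of treated libraries.

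**Figure D2:**
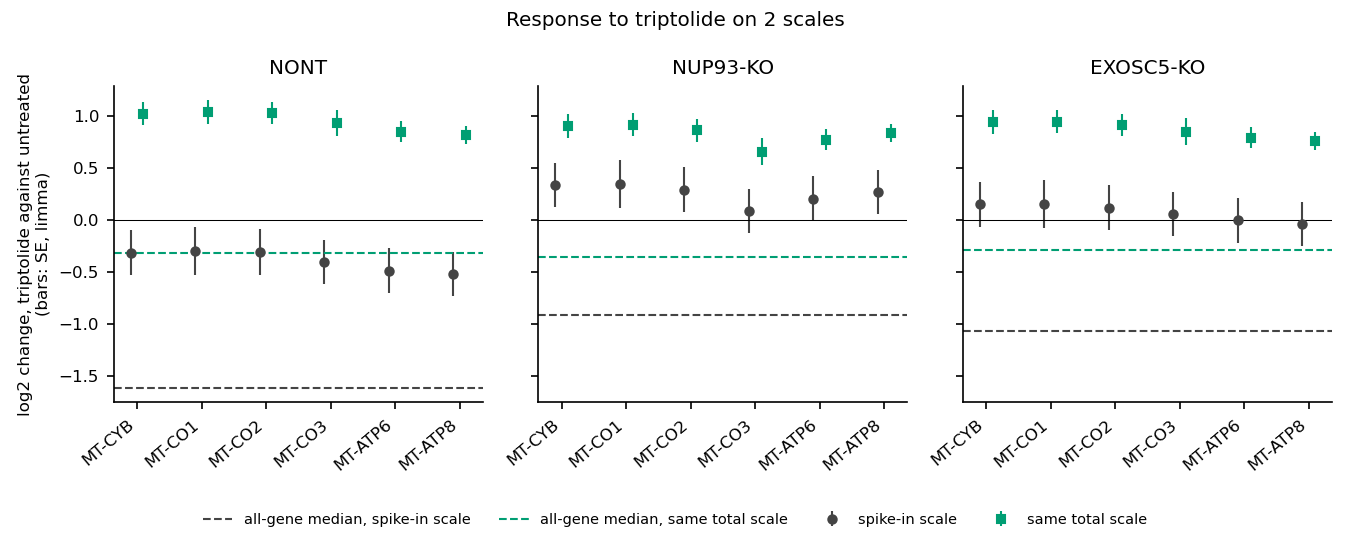
Log2 change of each mRNA after triptolide (vertical axis; bars, SE of the limma fit) in each genotype, on the spike-in scale (grey circles) and at the same total of all genes (green squares), with dashed lines at the median of all genes on each scale. The 6 mRNAs lie above the dashed line of their own scale in each panel, and in NONT they are below 0 on the spike-in scale (−0.52 to −0.30) and above 0 at the same total (0.81 to 1.04).

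Summed over the 6 mRNAs, the spike-in value in NONT was 38854 and 65024 without drug and 39744 and 38820 with it (51939 ± 18505 and 39282 ± 653, SD, n = 2). In NUP93-KO it was 50029 and 46732, then 59773 and 56572, and in EXOSC5-KO 67734 and 61481, then 65005 and 73870. The ratio of treated to untreated means was 0.756 in NONT, and the knockouts were at 1.20 (NUP93) and 1.07 (EXOSC5). The NONT value rests on its untreated libraries, since the log2 response was −0.40 with all 4 libraries, −0.73 without untreated replicate 1 and 0.016 without untreated replicate 2. The exact two-sided permutation p was 0.667, 0.333 and 0.667, and 0.333 is the smallest that groups of 2 allow. Relative to NONT, the log2 response was higher by 0.67 with NUP93 knocked out (exact permutation p = 0.167 over 36 arrangements) and by 0.51 with EXOSC5 knocked out (exact permutation p = 0.389), where 0.0556 is the smallest p possible. Without NONT untreated replicate 1 these differences were 0.99 and 0.83, and without NONT untreated replicate 2 they were 0.25 and 0.088. At the same total of all genes both turned negative, to −0.15 and −0.086.

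The knockouts were next compared with NONT. On the spike-in scale without drug, 0 of 6 mRNAs were called in NUP93-KO, against 0.0217% of all genes in either direction. In EXOSC5-KO it was 0 of 6 against 0.521% (limma, adjusted p under 0.05 for both). At an unadjusted p under 0.05 both counts were also 0. The log2 differences from NONT were −0.15 to −0.01 in NUP93-KO. In EXOSC5-KO they were 0.23 to 0.42, with both EXOSC5-KO libraries between or above the 2 NONT libraries for every mRNA, and without NONT untreated replicate 2 the number called higher was 4. With all libraries, the EXOSC5-KO median of the 6 was 0.37, against 0.07 over all genes. At the same total of all genes these medians were 0.34 and 0.04. On that scale 5 of 6, all but MT-CO3, were higher at an unadjusted p under 0.05, against 18.6% of all genes in either direction. Their limma adjusted p, with MT-CO3, was 0.0672 to 0.468. For NUP93-KO the same-total medians were 0.08 and 0.03, with 0 of 6 at an unadjusted p under 0.05 against 10.7%.

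Under triptolide the order was NONT, NUP93-KO, EXOSC5-KO for each of the 6 group means on the spike-in scale. In NUP93-KO 5 of 6 were higher than in NONT, all but MT-CO3, against 41.9% of all genes called higher. The 5 differed by 0.57 to 0.65 on the log2 scale (limma adjusted p of 0.0268 to 0.0463), and MT-CO3 by 0.34 (adjusted p = 0.188). The median difference of the 6, 0.63, was near that of all genes, 0.66. In EXOSC5-KO all 6 were higher, by 0.69 to 0.86 (adjusted p of 0.00836 to 0.0216), against 39.2% of all genes called higher and a median of 0.65. At the same total of all genes, 0 of 6 were called in either knockout, where 6.13% (NUP93-KO) and 13.1% (EXOSC5-KO) of all genes were called in either direction, and the median differences of the 6 were −0.03 and 0.26. These calls rest on few libraries: without treated NONT replicate 2 both counts were 0, without treated NONT replicate 1 they were 2 and 5, without either treated NUP93-KO library the NUP93-KO count was 0, and without treated EXOSC5-KO replicate 1 or 2 the EXOSC5-KO count was 4 or 0. Leaving out an untreated knockout library or, for the NUP93-KO count, a treated EXOSC5-KO library gave 3 in NUP93-KO.

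Each knockout's response was then tested against that of NONT. The log2 differences of the 6 mRNAs were 0.49 to 0.79 (NUP93-KO) and 0.43 to 0.49 (EXOSC5-KO), and 0 of 6 were called for either, against 0.775% and 0.333% of all genes. At an unadjusted p under 0.05 the counts were 3 and 0. The median over all genes was 0.74 and 0.57, above the medians of the 6 mRNAs, 0.65 and 0.46. Without NONT untreated replicate 1, all 6 were called higher in both comparisons. The knockouts differed from each other by −0.31 to −0.03 (EXOSC5-KO minus NUP93-KO), with 0 of 6 called against 0.0217% of all genes and 0 at an unadjusted p under 0.05. These comparisons share the NONT libraries.

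Each library's scale drops out when the mRNAs are set against each other, and on this measure the 6 did not move as a block. The 25 ratios and shares tested were chosen after seeing these values and share their references, so they are not independent tests. Their p-values, adjusted or not, describe a pattern already seen in these libraries. The ratio of MT-ATP6 to MT-CO1 was 0.325 to 0.344 in the 6 untreated libraries and 0.289 to 0.312 in the 6 treated libraries, with no overlap. Treated NONT libraries were at 0.308 and 0.293 against 0.344 and 0.342, NUP93-KO at 0.300 and 0.312 against 0.333 and 0.342, and EXOSC5-KO at 0.289 and 0.296 against 0.325 and 0.327. The mean change over the genotypes was −0.16 ± 0.02 (log2, SE from the spread within the 6 groups), a decrease in the ratio in 3 of 3 genotypes (exact two-sided permutation of treatment within genotype, p = 0.00926 over 216 arrangements, the smallest possible; 0.0231 after Benjamini-Hochberg adjustment over the 25 ratios and shares tested).

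The ratio of MT-CO3 to MT-CO1 behaved in the same manner within each genotype. In NONT it was 0.618 and 0.572, then 0.552 and 0.555 under triptolide. In NUP93-KO it was 0.566 and 0.526, then 0.470 and 0.442, and in EXOSC5-KO 0.521 and 0.525, then 0.484 and 0.495. Both treated libraries were lower in 3 of 3 genotypes, although the 6 treated and 6 untreated libraries overlapped across genotypes (mean log2 change −0.15 ± 0.03, exact permutation p = 0.00926, adjusted 0.0231). The change was −0.26 in NUP93-KO, −0.10 in NONT and −0.10 in EXOSC5-KO, a difference between genotypes that was not tested.

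MT-ATP8 to MT-CO1 was 0.0593 to 0.0724 in untreated and 0.0552 to 0.0668 in treated libraries. Both treated libraries were lower in NONT and EXOSC5-KO, while in NUP93-KO they were at 0.0567 and 0.0668 against 0.0599 and 0.0703. The mean change, −0.16 ± 0.07, gave an exact permutation p of 0.0463, and 0.0681 after adjustment, so this ratio did not pass without pairing by replicate number.

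MT-CYB and MT-CO2 stayed closest to MT-CO1. The ratio of MT-CYB to MT-CO1 was 0.288 to 0.302 without drug and 0.288 to 0.301 with it (mean log2 change −0.01 ± 0.02, exact permutation p = 0.472, adjusted 0.513). That of MT-CO2 was 0.439 to 0.449 without drug and 0.427 to 0.456 with it (−0.03 ± 0.02, exact permutation p = 0.102, adjusted 0.127). A p over the threshold does not show that these ratios were unaffected, but both changes were small beside those of MT-ATP6 and MT-CO3.

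**Figure D3:**
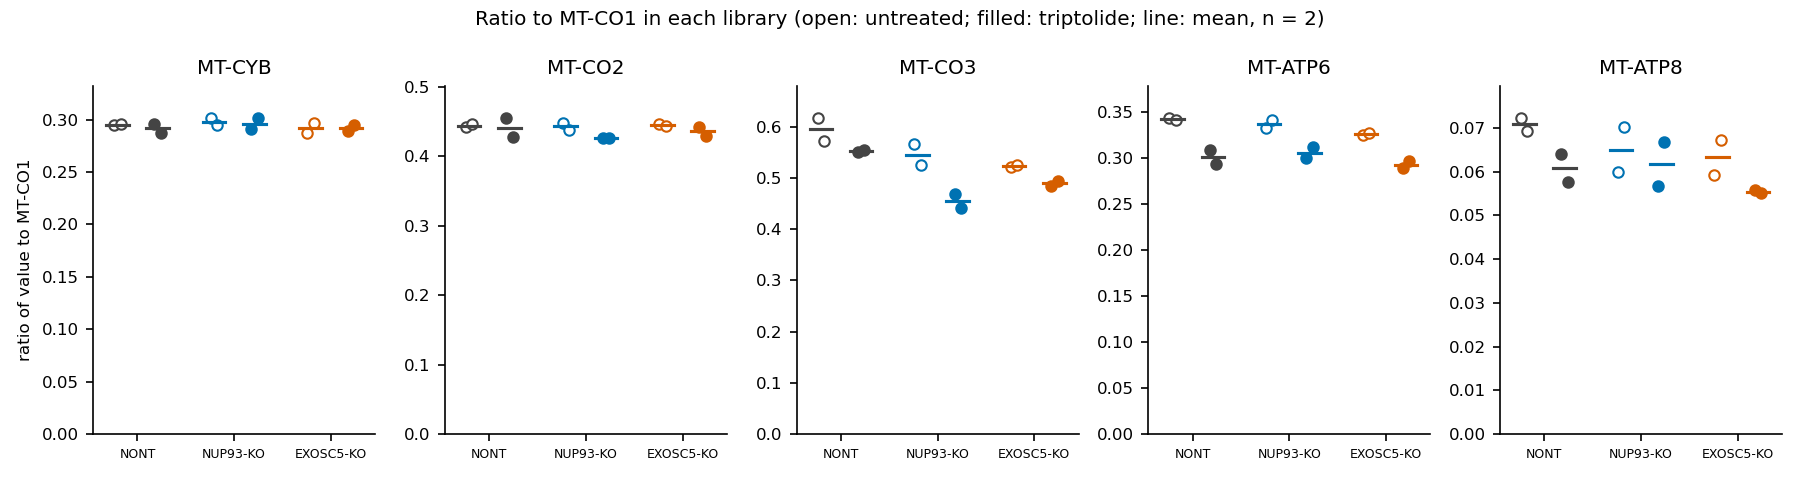
Ratio of each mRNA's value to that of MT-CO1 in each library (vertical axes, from 0), by genotype, with open points untreated, filled points triptolide and lines the mean of 2 libraries. MT-ATP6 ratios of treated libraries (0.289 to 0.312) lie below all untreated ones (0.325 to 0.344), and MT-CYB ratios cover nearly the same range in both.

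The choice of MT-CO1 as reference bears on this. Set against MT-ND1, a complex I mRNA, the changes of MT-CO3, MT-ATP6 and MT-ATP8 were −0.000911, −0.00932 and −0.00951 on the log2 scale, while those of MT-CYB and MT-CO2 were 0.14 and 0.12 (exact permutation p = 0.00926 and 0.0278, unadjusted). As a share of all 13 mRNAs, MT-CO1 and MT-CYB rose and MT-ATP6 fell, each in 3 of 3 genotypes. MT-CO1 was 24.1% to 25.0% of untreated and 24.7% to 25.8% of treated libraries, and MT-CYB 7.12% to 7.46% and 7.30% to 7.66%. MT-ATP6 was 8.05% to 8.53% and 7.42% to 7.93%. These 3 changes were 0.05, 0.04 and −0.11 on the log2 scale, each with an exact permutation p of 0.00926 (adjusted 0.0231). MT-CO3 (−0.10, p = 0.0370, adjusted 0.0579), MT-ATP8 (−0.11, p = 0.0926, adjusted 0.127) and MT-CO2 (0.02, p = 0.185, adjusted 0.220) did not pass the exact permutation test after adjustment.

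In genome order, the 3 genes without a tRNA between them, MT-ATP8, MT-ATP6 and MT-CO3, had negative mean changes in share, and MT-CO1, MT-CO2 and MT-CYB positive ones. Among complex I mRNAs the shares of MT-ND4 and MT-ND4L, which also overlap on a joint mRNA, rose by 0.20 and 0.17 (exact permutation p = 0.00926 for both, adjusted 0.0231), and those of MT-ND1, MT-ND2 and MT-ND6 fell by 0.10, 0.13 and 0.74 (p = 0.0185 each by exact permutation, adjusted 0.0331). A model fitted across all 13811 genes after setting libraries to the same total of the 13 mRNAs called 0 of the 6 in any of the 10 comparisons (limma, adjusted p under 0.05; 0 also at an unadjusted p under 0.05 in each), where 81.2% (NONT), 76.6% (NUP93-KO) and 75.1% (EXOSC5-KO) of all genes were called after triptolide. On the same scale 0.116% of all genes were called between untreated NUP93-KO and NONT, 5.74% between untreated EXOSC5-KO and NONT, and 1.02% and 5.52% under triptolide. For the responses the shares were 0.0145% (NUP93-KO minus NONT), 0.0434% (EXOSC5-KO minus NONT) and 0.00724% (EXOSC5-KO minus NUP93-KO). The direct permutation of ratios and shares used only their own spread, and it averaged the change over the 3 genotypes and 12 libraries. Each triptolide comparison of the model covered 1 genotype, with 2 libraries against 2, so the 2 tests ask different questions.

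**Figure D4:**
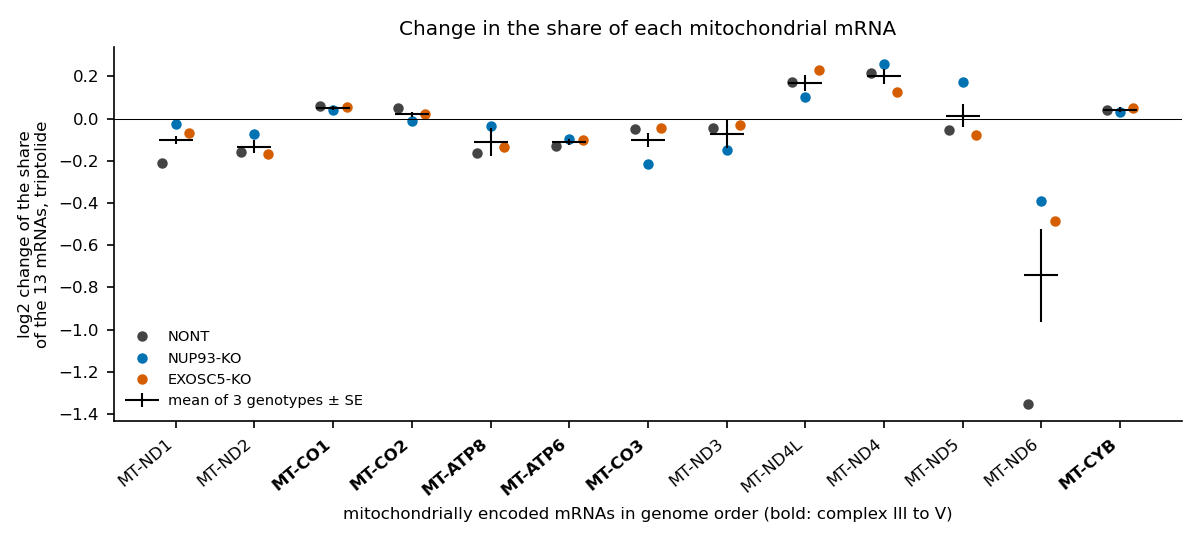
Log2 change after triptolide in each mRNA's share of the 13 mitochondrially encoded mRNAs (vertical axis), in genome order (horizontal axis), with coloured points for the 3 genotypes and black bars for their mean ± SE. MT-ATP8, MT-ATP6 and MT-CO3 lie below 0 in all 3 genotypes (means −0.11, −0.11 and −0.10), MT-CO1 and MT-CYB lie above 0 (0.05 and 0.04), and MT-ND6 lies lowest (−0.74). MT-ND6 rests on only about 23.8 to 53.5 reads per library.

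By list median, the nuclear-encoded partners of these complexes lay between the mitochondrial mRNAs and the bulk of genes on the spike-in scale. In NONT all 9 nuclear subunits of complex III fell (median log2 change −0.88), as did all 11 of complex IV (−0.79) and all 18 of complex V (−0.81), against −0.36 for the mitochondrial mRNAs of the same complexes. Of all genes, 90% (NONT), 55.1% (NUP93-KO) and 64.3% (EXOSC5-KO) were called lower. In NUP93-KO 1 of 9, 0 of 11 and 0 of 18 were called lower and none higher, with medians of −0.21, −0.08 and −0.07. In EXOSC5-KO 1 of 9, 0 of 11 and 2 of 18 were called lower and none higher, with medians of −0.30, −0.25 and −0.31.

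UQCRFS1, the Rieske iron-sulfur subunit of complex III, was the member called in both knockouts. It fell more than the all-gene median, which was −1.62 (NONT), −0.92 (NUP93-KO) and −1.08 (EXOSC5-KO). It was at 2221 to 3280.2 in untreated libraries and 703 to 1355 in treated ones, and its log2 changes in NONT, NUP93-KO and EXOSC5-KO were −1.94, −1.39 and −1.21 (limma adjusted p = 1.3e-07, 1.11e-05 and 4.07e-05). UQCRB, another subunit of complex III, changed least in NONT of its list, by −0.54 (adjusted p = 0.0231). Of complex IV, COX7A2 fell most in NONT (−1.25, adjusted p = 0.0150, at 29.6 to 118 in untreated libraries) and COX6C least (−0.53, adjusted p = 0.0287). Of complex V, ATP5F1D fell most (−1.07, adjusted p = 0.000282) and ATP5MC1, a gene for the membrane ring subunit, least (−0.56, adjusted p = 0.0144). These 6 were at the ends of their lists in NONT.

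mRNAs for the machinery of mitochondrial transcription had a median change below that of all genes. All 6 listed transcription factors were called lower in each genotype, against 90% (NONT), 55.1% (NUP93-KO) and 64.3% (EXOSC5-KO) of all genes, with medians of −2.54 (NONT), −1.80 (NUP93-KO) and −1.97 (EXOSC5-KO). POLRMT, the polymerase, was at 864 to 1579 in untreated and 263 to 512 in treated libraries (log2 change −2.01, −1.46 and −1.28; limma adjusted p of 0.000236 or less). TFAM, which packages mitochondrial DNA and starts its transcription, was at 1617 to 2415 and 609.7 to 1115 (−1.59, −0.79 and −1.30), the least change of the list in NONT and just above the all-gene median there and in NUP93-KO. MTERF1, a mitochondrial terminator protein, fell most in NONT (log2 change −3.85) and was at 4.82 to 37.4 in treated libraries against 104 to 222 in untreated ones.

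Genes for the processing and stability of mitochondrial RNA were less uniform: 18 of 19 were called lower in NONT, and the knockouts gave 12 (NUP93) and 13 (EXOSC5), with none higher. These shares of the list, 18, 12 and 13 of 19, stand beside 90%, 55.1% and 64.3% of all genes called lower. FASTKD5, a protein needed for mRNA ends that no tRNA marks, was at 505 to 729 in untreated libraries and at 0 to 16.5 in treated ones. Both treated NONT libraries were at 0, which is at least 384-fold lower than the untreated mean when 3 reads per library are taken as the floor. MTPAP, the mitochondrial poly(A) polymerase, was at 441 to 643 and 21.3 to 61.6, with log2 changes of −4.59 (NONT), −3.19 (NUP93-KO) and −4.01 (EXOSC5-KO; limma adjusted p of 1.63e-07 or less). SLIRP, the stem-loop binding partner of LRPPRC, was at 542 to 807 and 368 to 585, and fell in NONT (−0.77, adjusted p = 0.00352) while its changes in the knockouts, −0.02 and −0.19, did not pass. LRPPRC ranged from 61.6 to 231 in untreated libraries and from 27.0 to 153 in treated ones, and did not pass in any genotype (limma adjusted p = 0.0733, 0.229 and 0.974). REXO2, an exonuclease for short RNA, changed least of the list in NONT (−0.70, adjusted p = 0.00377).

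Factors for the synthesis and assembly of complexes III to V were called lower for 22 of 22 genes in NONT. The count was 15 with NUP93 and 14 with EXOSC5 knocked out, and none was called higher, against 90%, 55.1% and 64.3% of all genes called lower. Their median log2 change of −1.51, −0.85 and −0.73 was within 0.11 of the all-gene median in NONT and 0.07 in NUP93-KO, and 0.34 above it in EXOSC5-KO. TACO1, which activates translation of MT-CO1, was at 515 to 699 without drug and 32.5 to 79.9 with it, with log2 changes of −3.87, −3.01 and −3.09 in the same order. SCO2, a copper carrier for the MT-CO2 protein, fell most of the list in NONT (log2 change −4.78), from 292 to 475 in untreated libraries to 11.8 to 64.7 in treated ones. ATPAF1, an assembly factor of the ATP synthase, was at 513 to 693 and 307 to 596 and changed least in NONT.

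**Figure D5:**
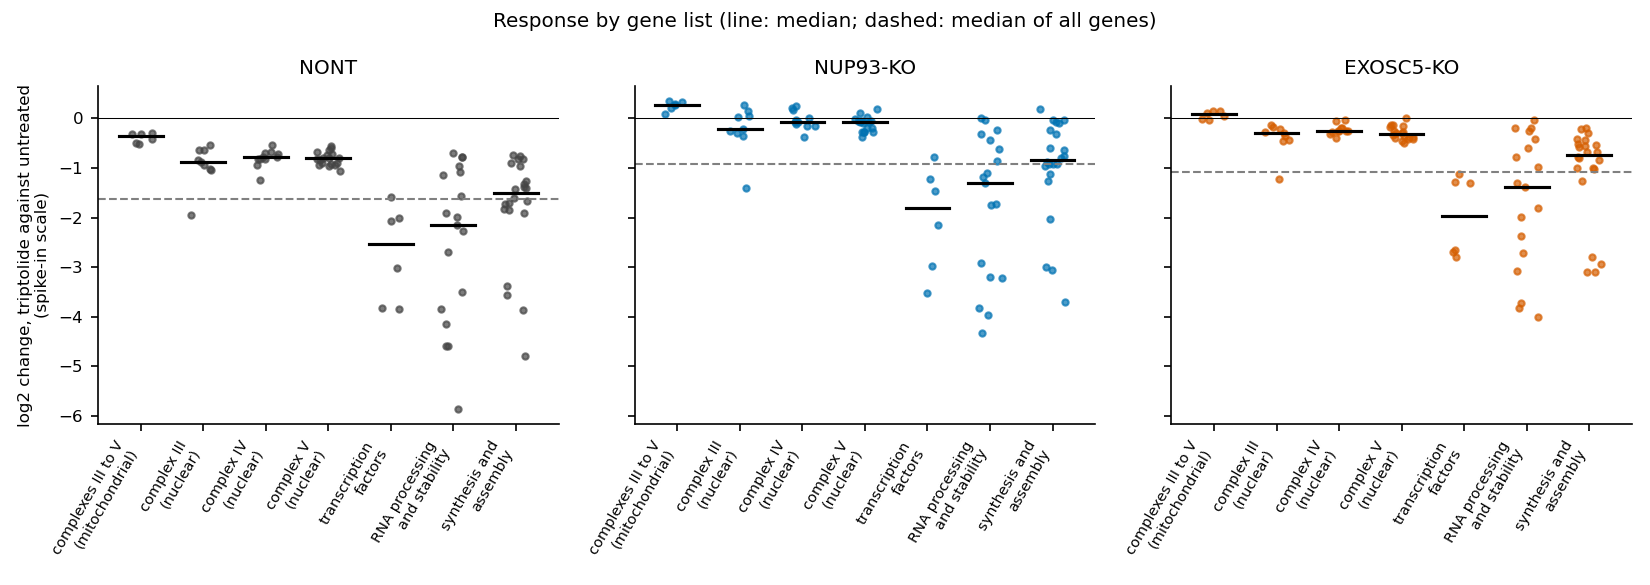
Log2 change after triptolide on the spike-in scale (vertical axis) of each gene in 7 lists (horizontal axis) in the 3 genotypes, with black lines at list medians and a dashed line at the median of all genes. FASTKD5, at 0 in both treated NONT libraries, counts in its list's median and is not drawn. The mitochondrial mRNAs lie highest by median in each panel (−0.36, 0.28 and 0.09) and the transcription factors lowest (−2.54, −1.80 and −1.97).

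The complex I mRNAs of mitochondrial DNA had median log2 changes on the spike-in scale of −0.41 (NONT), 0.28 (NUP93-KO) and 0.03 (EXOSC5-KO), beside −0.36, 0.28 and 0.09 for the 6. In NONT 3 of 7 were called lower (MT-ND1, MT-ND2 and MT-ND6), against 90% of all genes. In NUP93-KO 1 of 7 was called, higher (MT-ND4), against 55.2% of all genes called in either direction, and in EXOSC5-KO none was, against 64.4%. Across the 12 libraries, the mean of the 6 was compared with 9460 genes with a mean of at least 100, leaving out the 13 mitochondrially encoded mRNAs. The most similar pattern was that of ENSG00000282017, whose ID has no symbol in the annotation used (Pearson r = 0.98). Its locus was not checked, so whether it takes reads of mitochondrial sequence is not known. NDUFB2, a complex I subunit gene of the nucleus, followed with r = 0.94, then YIPF6 (0.93), MMD (0.92) and ABHD12B (0.92). These correlations are a description over libraries that share groups and spike-in scale.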

How the data were processed

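mRNA was measured in 12 libraries of poly(A) RNA from U2OS cells, 2 for each of 3 genotypes without and with 1 μM triptolide for 8 h. Per the study's methods, the authors quantified stranded paired-end reads with kallisto 0.46.1, summed transcripts to genes, divided by DESeq2 size factors taken from the 92 ERCC spike-ins and kept protein-coding genes. The deposited values are therefore a spike-in-normalised signal, not whole counts: 29.5% to 36.1% of low values lay within 0.05 of a whole number of reads, so no count model was used. The build is GRCh38; the release of the authors' index is not given in the sources used here. The depth was inferred from the step between low ERCC values, and its counting error is small beside the spread between libraries.

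Genes with an untreated mean of at least 10 (13811) were analysed as log2(value + 1), which understates the change of low genes, with 6 group means in limma 3.58.1 (R 4.3.3; eBayes with trend, two-sided) and Benjamini-Hochberg adjustment over all genes in each of 10 comparisons; adjusted p under 0.05 was called. Replicates are separate libraries, and no source used here says that they came from separate transfections, so p-values measure the spread between these samples. Summed values, ratios and shares were compared by exact permutation in Python 3.11.15 (NumPy 2.4.6, pandas 2.3.3). The steps were tested on simulated data. Alternatives were the pseudocount, the filter, the variance trend, 5 other scalings, a replicate block and leaving out each library. The members and gene lists were chosen with earlier results of these data known, and the ratios and shares were chosen after seeing these values. Named are the 6 members, 6 fixed factors (POLRMT, TFAM, LRPPRC, SLIRP, MTPAP and TACO1), the lowest and highest change in NONT of each list and the 5 most similar genes. Sequences and coordinates come from GRCh38 and GENCODE release 44.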

Additional observations from a re-analysis of the deposited data

Results flagged for a closer look

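For MT-ATP6 and MT-ATP8 on the spike-in scale, both treated libraries were below both untreated ones in NONT and above both in NUP93-KO. All 6 mRNAs had a negative log2 change in NONT and a positive one in NUP93-KO, so the opposite signs are not particular to these 2, and in NUP93-KO neither passed the test (limma adjusted p = 0.446 for MT-ATP6 and 0.301 for MT-ATP8). The response in NUP93-KO minus that in NONT was 0.69 ± 0.30 (log2, SE) for MT-ATP6 and 0.79 ± 0.30 for MT-ATP8. Neither difference passed the test (limma adjusted p = 0.104 and 0.0822 over 13811 genes). The median difference over all genes was 0.74 in the same direction. At the same total of all genes, both mRNAs rose in both genotypes.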

How the results depend on the processing

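Depth limits no value of the 6 mRNAs, at 940 reads or more each; the 2 libraries per group do. Scaling decided the direction on the spike-in scale, by its own construction. With libraries set to the same total of all genes, to the same total of genes not mitochondrially encoded, or by the median of ratios, all 6 were called higher after triptolide in each genotype (6 in place of 2 for NONT and of 0 for either knockout), and the higher calls under triptolide against NONT went from 5 in NUP93-KO and 6 in EXOSC5-KO to 0. In that order of scalings, the log2 changes that turned in NONT were 1.02, 1.03 and 1.32 for MT-CYB, 1.04, 1.04 and 1.34 for MT-CO1, 1.03, 1.04 and 1.33 for MT-CO2, 0.93, 0.94 and 1.24 for MT-CO3, 0.85, 0.86 and 1.15 for MT-ATP6, and 0.81, 0.82 and 1.12 for MT-ATP8. In EXOSC5-KO they were 0.79, 0.80 and 1.07 for MT-ATP6 and 0.75, 0.76 and 1.03 for MT-ATP8. For NUP93-KO against NONT under triptolide they were −0.015, −0.016 and −0.038 for MT-CYB, −0.035, −0.035 and −0.058 for MT-CO1, −0.082, −0.083 and −0.11 for MT-CO2, −0.31, −0.31 and −0.34 for MT-CO3, −0.010, −0.011 and −0.033 for MT-ATP6, and −0.015, −0.016 and −0.038 for MT-ATP8. The summed response became 0.99, 0.99 and 1.29 (NONT), 0.83, 0.84 and 1.16 (NUP93-KO), and 0.90, 0.91 and 1.18 (EXOSC5-KO), and its difference from NONT −0.15, −0.15 and −0.13 (NUP93-KO) and −0.086, −0.085 and −0.11 (EXOSC5-KO). At the same sum of the 7 complex I mRNAs the summed response in NUP93-KO was −0.11, the difference −0.12, and 1 mRNA, MT-CO3, was called lower relative to the other mitochondrial mRNAs.

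In NONT the count of 2 became 1 without the low-value filter, 0 without the variance trend and 1 at the same ERCC sum; under triptolide, NUP93-KO against NONT, the count of 5 became 1, 0 and 3. The cause was not tested. Over all genes, replicate numbers did not pair the libraries (correlation of same-numbered deviations −0.05 to 0.04 in 15 pairs of groups). Over the 13 mitochondrial mRNAs, relative to each other, this correlation was 0.83 within NONT, 0.95 within NUP93-KO and −0.28 within EXOSC5-KO. Between groups of different genotypes it ranged from −0.75 (treated NONT with treated NUP93-KO) to 0.77 (treated NONT with untreated EXOSC5-KO). A high value within a genotype thus does not by itself show a pairing. The unpaired tests of ratios and shares may leave out a pairing, which was not tested. With the replicate block that count of 5 became 3, and no other count changed side. By number, the ratio of MT-ATP8 to MT-CO1 was lower in 6 of 6 pairs (mean log2 change −0.16) and its share of the 13 likewise (−0.11), each with an exact sign-flip permutation p of 0.0312, the smallest possible, and 0.0488 after adjustment over 25, so both passed under this replicate block, chosen after seeing the data; the share of MT-CO3 (−0.10, lower in 5 of 6) gave 0.0938 by exact permutation. Leaving out a library gave 0 to 6 calls after triptolide in NONT, 0 to 3 in NUP93-KO, 0 to 4 for EXOSC5-KO against NONT without drug, 0 to 6 for either knockout against NONT under triptolide and 0 to 6 for either difference in response from NONT. The summed response ranged from −0.73 to 0.016 (NONT), 0.22 to 0.32 (NUP93-KO) and 0.0088 to 0.19 (EXOSC5-KO), and its difference from NONT from 0.25 to 0.99 and from 0.088 to 0.83. With MT-ND1 as reference in place of MT-CO1, the changes turned for MT-CYB (0.14) and MT-CO2 (0.12). Those of MT-CO3 (−0.000911) and MT-ATP6 (−0.00932) no longer passed there. With the 7 complex I mRNAs as reference, MT-CO3 (−0.12) no longer passed. MT-CO1 (0.03) and MT-CYB (0.03), whose shares of the 13 had passed, did not pass on that reference. MT-ATP8, which had not passed against MT-CO1 after adjustment, did not pass on either reference (−0.00951 and −0.13). The tests with these other references were not adjusted. Leaving out a library gave ratio changes of −0.047 to −0.016 for MT-CO2 and −0.20 to −0.12 for MT-ATP8, and share changes of −0.12 to −0.083 for MT-CO3 and −0.15 to −0.070 for MT-ATP8, with calls lost or gained in each. Of 1320 repeats of single mRNAs on the spike-in scale, 1128 kept their side of the threshold, 89 of them with a change of sign and no call.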
